A study of Mus musculus with 6 samples.

Results

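Expression of 10 genes of the adipocyte programme was followed in satellite cells of control mice and of mice with a conditional deletion of Hira. They were taken by symbol from a list of C/EBP, PPARG and adipocyte lipid genes chosen with earlier results of these data known. All 10 were found among the 55536 genes with raw counts. Of these genes, 5 encode transcriptional regulators (Pparg, Cebpa, Cebpb, Cebpd and Klf15) and 5 are terminal adipocyte genes (Plin1, Plin2, Adipoq, Lpl and Fabp4). The question was whether the regulators and the terminal genes differed between control and Hira conditional knockout (cKO) cells, and which genes of the programme were detected.

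RNA was sequenced from 6 samples, 3 of which were controls of the genotype Pax7CreErt2;Hira fl/+. The remaining 3, called cKO, had the genotype Pax7CreErt2;Hira fl/fl. Satellite cells are the stem cells of skeletal muscle, and HIRA is the chaperone that deposits the histone variant H3.3. Mice were adult C57BL/6J males aged 8 to 12 weeks. Both genotypes carried Cre under control of Pax7, which is active in satellite cells, and both were given tamoxifen food for 2 weeks and regular food for 1 week. The controls therefore had Cre, tamoxifen and 1 floxed Hira allele, and the sample labels call them wild type. Tibialis anterior muscle was injured with BaCl2, and cells were sorted 5 days later as CD34+ ITGA7+ and negative for CD45, TER119 and SCA1. They were then kept for 48 h in high-serum medium with bFGF at low density. The study describes the replicates as independent RNA samples and does not state separate mice, so the p-values measure the spread between these samples, which may be partly technical.

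In adipogenesis, C/EBPβ and C/EBPδ act early and induce PPARγ and C/EBPα, which then maintain each other and activate the genes of the fat cell. KLF15 is a further factor that promotes this step. Fat is stored in lipid droplets coated by perilipins, of which PLIN1 is characteristic of fat cells, whereas PLIN2 coats droplets in many cell types. LPL releases fatty acids from lipoproteins, FABP4 carries them inside adipocytes, macrophages and endothelial cells, and adiponectin (Adipoq) is a hormone made almost exclusively by mature adipocytes.

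The promoter sequences of 7 of the 10 genes were read from RefSeq (GRCm38.p6) as the 250 bases before each annotated start. Of these, 3 are shown because they belong to a regulator and a droplet gene that were upregulated and to an adipocyte gene that was almost undetected. The window of Cebpa is chr7:35119043-35119292 (+), that of Plin2 is chr4:86670060-86670309 (-) and that of Adipoq is chr16:23146286-23146535 (+). Capitals mark CpG dinucleotides, and all are written 5′ to 3′.
Cebpa: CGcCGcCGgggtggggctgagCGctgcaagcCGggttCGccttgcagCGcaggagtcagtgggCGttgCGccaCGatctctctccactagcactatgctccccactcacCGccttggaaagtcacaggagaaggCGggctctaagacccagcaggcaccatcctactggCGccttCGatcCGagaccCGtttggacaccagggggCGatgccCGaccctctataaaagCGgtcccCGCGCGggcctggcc
Plin2: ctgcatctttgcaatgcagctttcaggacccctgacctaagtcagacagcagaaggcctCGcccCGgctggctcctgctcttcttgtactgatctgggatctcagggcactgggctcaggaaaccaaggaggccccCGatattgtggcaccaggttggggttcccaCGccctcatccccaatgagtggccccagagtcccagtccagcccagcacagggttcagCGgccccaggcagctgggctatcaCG
Adipoq: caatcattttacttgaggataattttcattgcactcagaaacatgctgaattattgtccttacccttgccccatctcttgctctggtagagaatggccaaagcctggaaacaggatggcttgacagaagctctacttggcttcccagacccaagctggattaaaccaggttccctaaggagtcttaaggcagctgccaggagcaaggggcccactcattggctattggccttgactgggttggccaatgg

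The Cebpa window held 22 CpGs, the Plin2 window 6 and the Adipoq window 0, against a median of 6 and quartiles of 2 and 16 over 32841 RefSeq promoter windows of the same length. Cebpb had 41 CpGs, Klf15 had 37 and Plin1 had 1. Pparg has 3 RefSeq starts, with 38 CpGs at the first, 12 at the second and 2 at the downstream start that gives the adipocyte isoform. The lowest numbers, 0 and 1, belonged to Adipoq and Plin1, the genes at the limit of detection here, but a high number was no mark of a high level, since Klf15, with 37 CpGs, had at most 14 counts in any sample. A TATAAA motif, searched on both strands, lay at position -30 from the start of Cebpa, on the strand of the gene. The match at -29 from the second start of Pparg was on the opposite strand and reads TTTATA in the window. On either strand, 12.4% of all windows hold a match.

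The downstream start of Pparg is shown for its matches to the C/EBP motif TTGCNNAA, also searched on both strands. Counts here are per gene, so they do not show which start of Pparg was used in these cells. This window is chr6:115421816-115422065 (+), and capitals mark the matches.
Pparg, downstream start: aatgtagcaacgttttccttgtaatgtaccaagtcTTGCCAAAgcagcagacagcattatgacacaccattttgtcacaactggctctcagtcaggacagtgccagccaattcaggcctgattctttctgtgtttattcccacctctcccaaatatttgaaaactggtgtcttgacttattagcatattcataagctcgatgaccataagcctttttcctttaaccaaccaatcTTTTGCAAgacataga

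The matches begin at positions -215 and -16 from the start. Plin1, on the minus strand of chromosome 7 (79732777 to 79733026), also had 2 matches, at -187 and -58. At least 1 match is present in 9.57% of all windows, and the other 7 windows of these genes had 0. The direct repeat of AGGTCA with a spacer of 1 base, the motif of PPAR-RXR dimers, was found in 0 of the 9 windows and in 0.0335% of all windows. A match describes the letters of the window and is not evidence of binding.

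Samples had between 47944477 and 63323577 counts on genes. Differences between replicates exceeded sampling noise, with a chi-square per degree of freedom of at least 2.03, so no library was a copy of another. Hira had 375, 348 and 341 counts in control and 161, 293 and 272 counts in cKO. Its log2 fold change was -0.43 (SE 0.12, adjusted p = 0.0237 in edgeR's quasi-likelihood test), which became -0.34 with an adjusted p of 0.104 without control replicate 1, and 44.7% of its exonic bases also belong to another annotated gene on the same strand. By other measures, RT-qPCR and immunostaining, the study reported a sharp fall of Hira mRNA and no detectable HIRA protein in cKO satellite cells. That fall of mRNA was much larger than the one in the counts here, where cKO was at 0.741 of control. Of 22404 genes tested, 2101 (9.38%) were upregulated and 1448 (6.46%) downregulated in cKO. The lower count was 917, 934 or 960 when control replicate 1, 2 or 3 was left out, and scaling by total counts alone gave 2462 higher and 1057 lower. Markers of the labelled cell type were abundant: 8 satellite cell and myoblast genes together had 6980 to 7120 CPM (counts scaled to the sample's total) in control and 6200 to 6660 CPM in cKO.

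Of the 10 genes, 8 had enough counts to be tested, and 6 of these were upregulated in cKO at an adjusted p under 0.05, against 9.38% of all genes tested. The list was chosen with earlier results of these data known, so the contrast with all genes is descriptive and no test of the list. The 6 upregulated genes were Pparg, Cebpa, Cebpd, Plin2, Lpl and Fabp4. For Cebpb and Klf15 the test did not pass, and Plin1 and Adipoq were at the floor, taken here as a median of 3 counts or fewer in both groups. The regulators gave 3 calls among 5 tested, with a median log2 fold change of 0.29, and the terminal genes 3 among 3 tested of 5, with a median of 0.36. Over all genes tested the median was -0.001. Downregulated genes numbered 0 of 8, against 6.46% of all genes tested. In a list of 8 genes, 0 is close to that share and is no result about these genes. In DESeq2 the number was 0 of the 7 with an adjusted p, which was not given for Klf15. In edgeR 0 of 8 fell at an unadjusted p under 0.05, for which no share of all genes is given. For the 6 upregulated genes every cKO sample lay above every control sample in CPM, as did 20.3% of all genes tested.

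**Figure D1:**
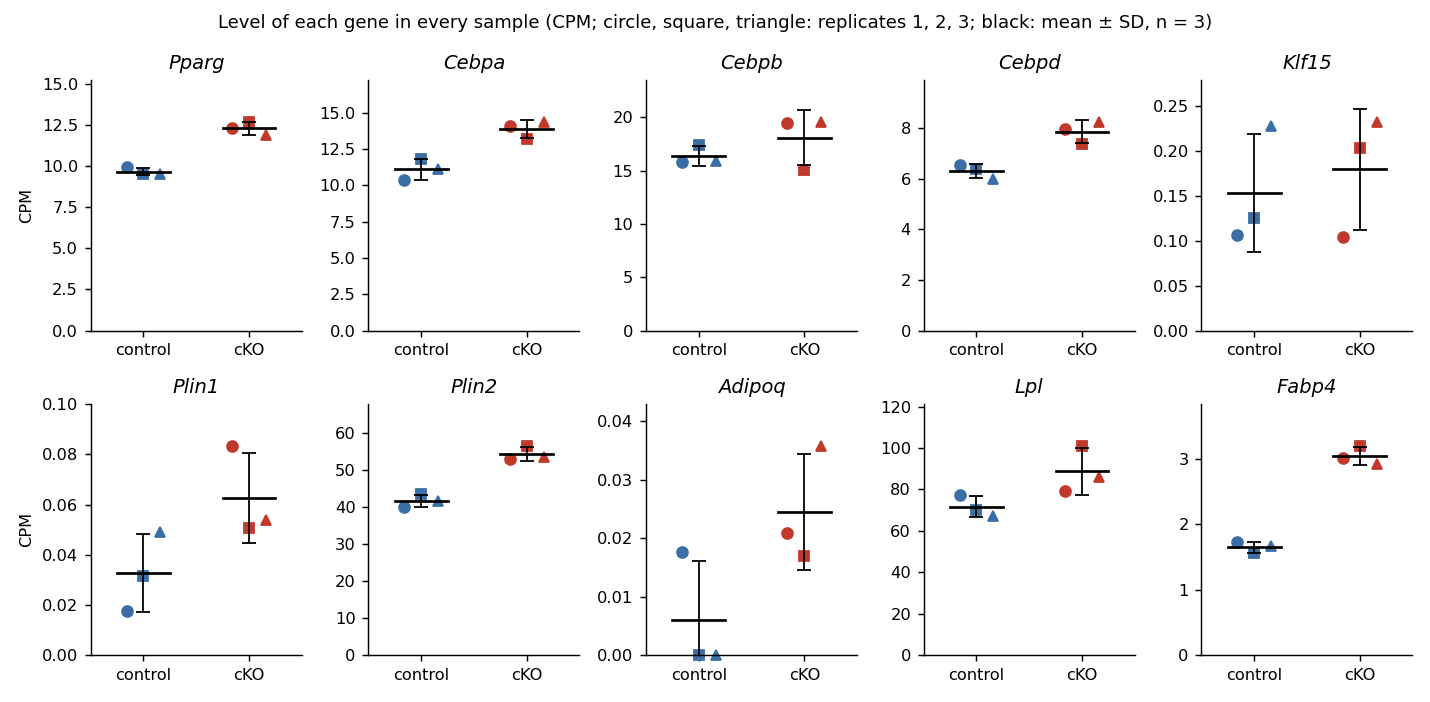
Level of each of the 10 genes (vertical axis, CPM, from 0) in the 3 control samples (blue) and 3 cKO samples (red), with black lines for the mean ± SD. Groups are apart for Pparg, Cebpa, Cebpd, Plin2, Lpl and Fabp4, they overlap for Cebpb and Klf15, and Plin1 and Adipoq stay under 0.1 CPM.

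Among the regulators, Pparg encodes the nuclear receptor PPARγ, without which fat cells do not form. The gene (ENSMUSG00000000440) spans chromosome 6 from 115360951 to 115490399 in mm10, on the plus strand. It had 9.92, 9.52 and 9.54 CPM in control and 12.3, 12.7 and 11.9 CPM in cKO, from 561 to 752 counts per sample. The cKO samples were all higher, and the gap between the groups was wider than the range within either. The means were 9.66 ± 0.224 and 12.3 ± 0.428 CPM (SD, n = 3), a log2 fold change of 0.32 (SE 0.06, 95% interval 0.20 to 0.44, edgeR adjusted p = 9.35e-04). It was called in all 6 fits that left out a sample.

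Cebpa encodes C/EBPα, the partner of PPARγ in the fat cell. The gene (ENSMUSG00000034957, chromosome 7, 35119293 to 35121928, plus strand) has a single exon. Its level was 10.4, 11.8 and 11.1 CPM in control and 14.1, 13.2 and 14.4 CPM in cKO. The groups did not overlap, and cKO replicate 2 was the lowest of the cKO samples. The mean rose from 11.1 ± 0.709 to 13.9 ± 0.623 CPM (SD, n = 3), a log2 fold change of 0.30 (SE 0.06, 95% interval 0.17 to 0.43, edgeR adjusted p = 0.00366). The study selected Cebpa for display from these same samples, so its direction here is not independent evidence. Separately, in the C2C12 myoblast line without Hira, the study reported more of the histone mark H3K4me3 at the Cebpa promoter. It saw no change of the mark H3K27me3 there.

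The early factors differed from each other in how firmly they were called. Cebpd, encoding C/EBPδ (ENSMUSG00000071637, chromosome 16, 15887286 to 15891031, plus strand), had 6.54, 6.38 and 6.01 CPM in control and 7.97, 7.37 and 8.27 CPM in cKO. All cKO samples were higher, with replicate 2 again the lowest of them. The log2 fold change was 0.29 (SE 0.07, 95% interval 0.14 to 0.45, edgeR adjusted p = 0.0111). This call was lost when cKO replicate 3 was left out (adjusted p = 0.061) or control replicate 3 (adjusted p = 0.0627). Of its exonic bases, 15.0% overlap Spidr on the opposite strand, and the strand setting of the counting is not given in the sources used here.

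Cebpb, encoding C/EBPβ (ENSMUSG00000056501, chromosome 2, 167688915 to 167690418, plus strand), had 15.8, 17.4 and 15.9 CPM in control and 19.5, 15.1 and 19.6 CPM in cKO. Replicate 2 of cKO was the lowest of all 6 samples, while the other two cKO samples were the highest. The log2 fold change of 0.12 had a 95% interval from -0.06 to 0.29 (edgeR adjusted p = 0.424). When cKO replicate 2 was left out, Cebpb was called (log2 fold change 0.23, adjusted p = 0.0106), so the outcome for Cebpb depended on that sample. Of its exonic bases, 20.7% overlap Tmem189 on the opposite strand.

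Klf15 (ENSMUSG00000030087, chromosome 6, 90462576 to 90475238, plus strand) was close to the limit of detection. It had 6, 8 and 14 counts in control and 5, 12 and 13 counts in cKO, which is 0.153 ± 0.0653 and 0.18 ± 0.0673 CPM (SD, n = 3). The samples of both groups were intermingled. The log2 fold change of 0.22 had a 95% interval from -0.67 to 1.12 (edgeR adjusted p = 0.803), so a change of the size seen for Pparg was not detectable at this depth.

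Among the lipid droplet proteins, the 2 perilipins on the list were at opposite ends of the range. Plin2 (ENSMUSG00000028494, chromosome 4, 86648386 to 86670060, minus strand) had 40.0, 43.4 and 41.5 CPM in control and 53.0, 56.5 and 53.5 CPM in cKO. The groups were well apart, and this was the most precisely measured change among the 10 genes. The mean rose from 41.6 ± 1.7 to 54.3 ± 1.89 CPM (SD, n = 3), a log2 fold change of 0.36 (SE 0.04, 95% interval 0.28 to 0.45, edgeR adjusted p = 1.33e-05). Plin1 (ENSMUSG00000030546, chromosome 7, 79720218 to 79732903, minus strand), by contrast, had 1, 2 and 3 counts in control and 4, 3 and 3 counts in cKO. It was too low to test, and no fold change is given.

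Adipoq (ENSMUSG00000022878, chromosome 16, 23146536 to 23158028, plus strand) had 1, 0 and 0 counts in control and 1, 1 and 2 counts in cKO. Both groups were at or under 3 counts, the upper limit that a count of 0 allows, which is 0.0474 CPM in the deepest sample and 0.0626 CPM in the shallowest. This limit covers counting error only. Adiponectin mRNA was thus not detected above the floor in either genotype.

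Lpl and Fabp4 act in the uptake and transport of fatty acids. Lpl (ENSMUSG00000015568, chromosome 8, 68880491 to 68907448, plus strand) had 77.2, 70.2 and 67.3 CPM in control and 79.0, 101 and 85.9 CPM in cKO. The lowest cKO sample was only slightly above the highest control sample, and cKO replicate 2 was the highest of all. The log2 fold change was 0.29 (SE 0.07, 95% interval 0.14 to 0.43, edgeR adjusted p = 0.0089). Leaving out control replicate 3 gave 0.24 (adjusted p = 0.0677), leaving out cKO replicate 2 gave 0.18 (adjusted p = 0.023), and DESeq2 gave an adjusted p of 0.105.

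Fabp4 (ENSMUSG00000062515, chromosome 3, 10204088 to 10208576, minus strand) changed most. It had 98, 99 and 102 counts in control and 145, 189 and 163 counts in cKO, which is 1.73, 1.56 and 1.66 CPM against 3.02, 3.2 and 2.92 CPM. The cKO samples formed a tight group far above the controls. The log2 fold change was 0.86 (SE 0.11, 95% interval 0.63 to 1.09, edgeR adjusted p = 5.53e-05), a 1.81-fold rise, and it was called in all 6 fits that left out a sample. Its interval lay above those of the other 5 upregulated genes, the highest of which ended at 0.45 for Plin2 and Cebpd. The difference between genes was not tested.

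**Figure D2:**
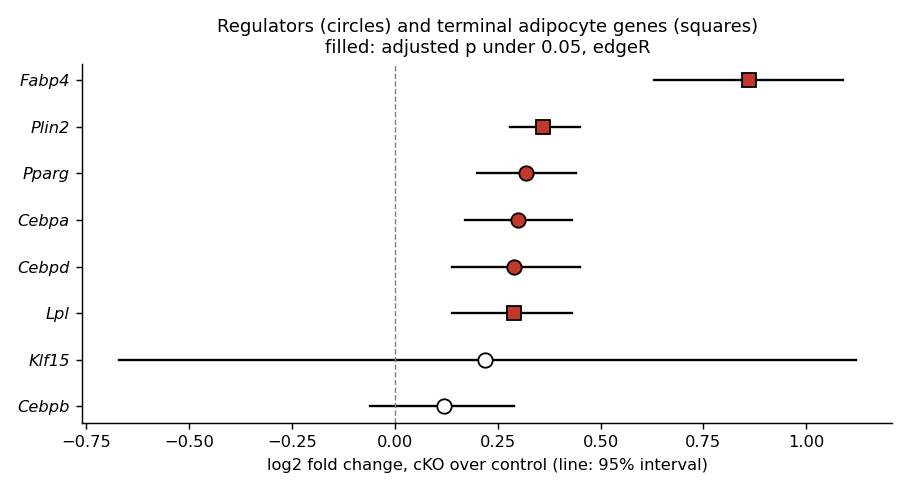
Log2 fold change of cKO over control (horizontal axis) for the 8 genes tested, with lines for the 95% interval, circles for regulators, squares for terminal genes and filled symbols for an adjusted p under 0.05. Fabp4, at 0.86, is apart from the other called genes at 0.29 to 0.36, and the intervals of Klf15 and Cebpb include 0.

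The replicates of cKO did not rank the same way for all genes. Replicate 2 was the highest of the cKO samples for Pparg, Plin2, Lpl and Fabp4, and the lowest for Cebpa, Cebpb and Cebpd. The summed markers of macrophages, progenitors and endothelial cells, described further on, were also highest in cKO replicate 2, at 354, 210 and 24.6 CPM, and those of satellite cells and myoblasts were lowest there, at 6200 CPM. The 3 C/EBP genes have 1 exon each. With 3 samples this is a description of single libraries, and the part of these properties was not tested.

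Levels between genes were compared per kilobase of transcript (RPKM), over the longest coding mRNA. In control, Plin2 was the highest at 22.0 ± 0.898 RPKM, followed by Lpl at 17.4 ± 1.24 and Cebpb at 10.9 ± 0.588 (SD, n = 3), and these 3 did not overlap. Pparg at 4.55 ± 0.105 and Cebpa at 4.22 ± 0.27 RPKM overlapped in control. So did Fabp4 at 1.84 ± 0.095 and Cebpd at 1.68 ± 0.0729 RPKM, whereas in cKO Fabp4 was above Cebpd, at 3.4 ± 0.155 against 2.1 ± 0.123 RPKM. Klf15 followed at 0.0618 ± 0.0263 RPKM in control. Plin1 and Adipoq had ranges that overlapped each other, with 0.0116 ± 0.00554 and 0.00456 ± 0.0079 RPKM in control. The order depends on the length used. Over all annotated exons Cebpb, at 10.9 RPKM, was above Lpl, at 6.83 RPKM, and Fabp4, at 0.368 RPKM, was below Cebpd. Reads were aligned without splitting over introns, which lowers the level of genes with many exons relative to the C/EBP genes with 1 exon.

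**Figure D3:**
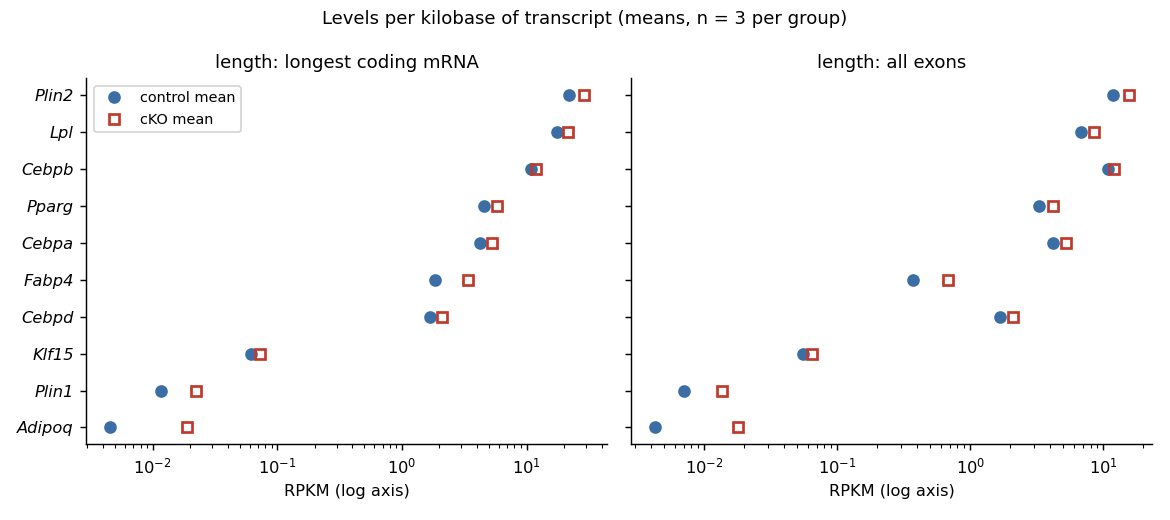
Mean level per kilobase (horizontal axis, RPKM, log scale) of the 10 genes in control (blue circles) and cKO (red squares), over the longest coding mRNA (left) and all annotated exons (right). Plin2, Lpl and the regulators other than Klf15 lie above 1 RPKM, and Plin1 and Adipoq lie below 0.03 RPKM in both panels.

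Other genes of the pathway were examined as 8 lists with 92 genes in all, of which 83 were tested. Among these, 22 were upregulated and 11 downregulated in cKO (median 0.02 on the log2 scale), against 9.38% and 6.46% of all genes and a median of -0.001. These lists too were chosen with earlier results of these data known, so the contrast is descriptive.

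Of 19 further adipogenic transcription factors, 18 were tested, 5 rose and 3 fell, and the median log2 fold change was -0.01. Ebf2, a factor of committed preadipocytes and brown fat, rose from 1.85 ± 0.0759 to 4.38 ± 0.144 CPM (SD, n = 3), a log2 fold change of 1.22 (edgeR adjusted p = 3.55e-07). Its relative Ebf1 rose from 28.0 ± 0.554 to 45.2 ± 3.06 CPM, by 0.67 on the log2 scale. Klf4 and Nr3c1, the glucocorticoid receptor, rose by 0.22 and 0.17 and are named after their values were seen. Prdm16, a regulator of brown fat, had a log2 fold change of 0.45 that passed in the full fit (adjusted p = 0.0489) but in only 1 of 6 fits that left out a sample. The genes that fell were Rxrg, a partner of PPARγ, at -0.32, the coactivator Ppargc1b at -0.19 and Klf5 at -0.13, and the last 2 were called in 3 and 4 of those 6 fits. Cebpe was at the floor.

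Of 10 genes known to inhibit adipogenesis, all tested, 5 were upregulated and 1 downregulated, with a median of 0.17. Dlk1, encoding the preadipocyte factor Pref-1, rose from 0.466 ± 0.0914 to 1.37 ± 0.277 CPM (SD, n = 3), a log2 fold change of 1.53 (edgeR adjusted p = 1.19e-04), from 21 to 34 counts in control and 51 to 95 counts in cKO. Trib2 rose by 0.70 and Klf2 by 0.59 on the log2 scale, while Foxo1 was at -0.25. The remaining upregulated genes, named after their values were seen, were Wnt10b at 0.40 (adjusted p = 0.0467, called in 1 of 6 fits without a sample) and Nr2f2 at 0.25.

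Of 14 further lipid droplet and lipolysis genes, 13 were tested and 2 rose, with a median of 0.03. Plin3, a perilipin of many tissues, had a log2 fold change of 0.23 and Pnpla2, the main triglyceride lipase, of 0.26, the latter called in 4 of the 6 fits that left out a sample. G0s2, an inhibitor of that lipase, fell, at -0.34. Cidec, which enlarges droplets in fat cells, was at the floor with at most 1 count in any sample.

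Of 13 genes of fatty acid and triglyceride synthesis, 4 rose and 2 fell, with a median of 0.11. Changes were small, from 0.28 for the elongase Elovl6 to 0.14 for Acaca, 0.12 for Fasn and 0.11 for Acly, the last of which is named after its value was seen. Gpam, the first enzyme of triglyceride synthesis, was at -0.18 and Lpin1 at -0.19. Of the 6 fits that left out a sample, Elovl6 and Gpam were called in all, Acaca in 3, Fasn and Acly in 2 and Lpin1 in 1, and Lpin1 was not called with DESeq2 (adjusted p = 0.107).

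Of 9 genes of fatty acid uptake and lipoprotein handling, 8 were tested, 4 rose and 1 fell, with a median of 0.17. The fatty acid receptor Cd36 had 1137, 1190 and 1148 counts in control and 2088, 2709 and 2402 counts in cKO. The groups were far apart, at 19.2 ± 0.787 and 44.1 ± 1.47 CPM (SD, n = 3), a log2 fold change of 1.18 (SE 0.04, edgeR adjusted p = 2.26e-10). Fabp5 rose by 0.40, Angptl4, an inhibitor of LPL, by 0.31 and Slc27a1, named after its value was seen, by 0.15 on the log2 scale, while Vldlr was at -0.17. Slc27a1 was called in 1 of the 6 fits that left out a sample and not with DESeq2 (adjusted p = 0.109), and Vldlr in 3 of them.

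Of 7 other PPAR receptors and targets, 6 were tested, and the 1 gene called was Pdk4, which fell, at -0.27. Of 10 other mature adipocyte genes, 5 were tested and 1 rose, Car3, a carbonic anhydrase abundant in fat and in slow muscle, from 154 ± 3.83 to 195 ± 7.17 CPM (log2 fold change 0.32). Leptin (Lep), Retn, Cfd and Ucp1 were at the floor by their medians, and the highest single value was 5 counts, for Cfd in control replicate 1. Among 10 glucocorticoid-responsive genes, all tested, 7 were not called, and the median log2 fold change was -0.06. Sgk1 rose by 0.41 while Mt2, at -0.48, and Mt1, at -0.24, fell.

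**Figure D4:**
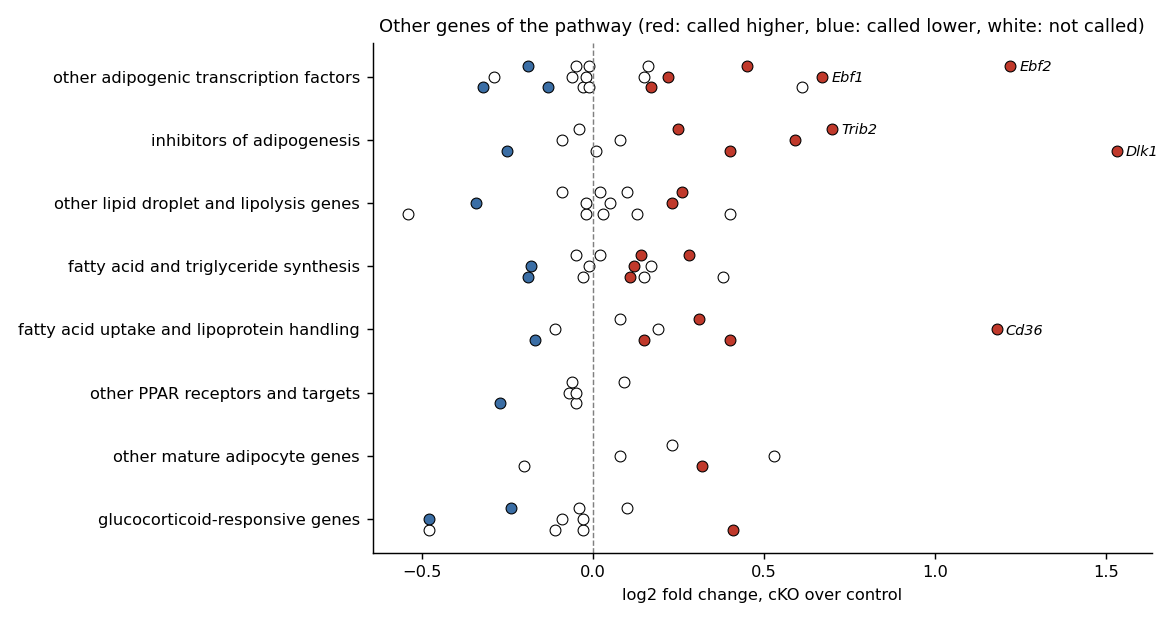
Log2 fold change of cKO over control (horizontal axis) for the 83 tested genes of the 8 pathway lists, 1 point per gene, red if called higher, blue if called lower and white if not called. Dlk1, Ebf2 and Cd36, at 1.53, 1.22 and 1.18, stand apart from the rest, and most points lie between -0.5 and 0.5.

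Several of these genes are also expressed outside the fat and muscle lineages, and markers of other cell types moved with them. In bulk RNA, more cells of a type and more RNA per cell cannot be told apart. Nor can either be told apart from expression of such genes by the satellite cells themselves, which is what the study proposes. It reported immunostaining for VE-Cadherin, the product of Cdh5, in satellite cells lacking Hira. All 13 macrophage markers were upregulated in cKO (median 1.06 on the log2 scale), and their sum was 144 to 149 CPM in control and 301 to 354 CPM in cKO. The most abundant was Lyz2, at 80.4 ± 1.46 and 186 ± 16.9 CPM (SD, n = 3), and Tyrobp had the largest change, 1.20. Ptprc, which encodes the CD45 protein used to remove cells in the sort and is named after its values were seen, had 72 to 94 counts in control and 126 to 169 counts in cKO.

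Of 9 markers of fibro-adipogenic progenitors, the muscle-resident cells that can form fat, 7 were tested and 5 rose. Their sum was 85.8 to 91 CPM in control and 178 to 210 CPM in cKO, and Smoc2 was both the most abundant and the most changed, with a log2 fold change of 1.19. Ly6a, which encodes the SCA1 protein used in the sort and is also named after its values were seen, had 175 to 198 counts in control and 183 to 211 counts in cKO (log2 fold change 0.24, edgeR adjusted p = 0.115). Of 9 endothelial markers, 3 rose, led by Kdr at 0.78, and their sum was 15.7 to 16.9 CPM in control and 19.2 to 24.6 CPM in cKO. The other two, Cdh5 and Pecam1, named after their values were seen, were each called in 2 of the 6 fits that left out a sample, and Pecam1 not with DESeq2 (adjusted p = 0.157). Vwf was the most abundant. Of 5 tested pericyte and smooth muscle markers, 3 rose and 2 fell, with sums of 285 to 291 and 313 to 355 CPM. Cspg4 was the most abundant and called in 1 of the 6 fits that left out a sample, Myh11 had the largest change at 0.98, and Kcnj8 was at the floor. Of the 8 satellite cell and myoblast markers 7 fell, with Myf5 at -0.37 and Des, the most abundant, at -0.15 and called in 3 of the 6 fits. The study displayed Pdgfra, Cdh5, Pax7, Myf5 and Myod1 of these lists from the same samples, so their directions are not independent evidence.

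The 6 mature adipocyte markers (Adipoq, Plin1, Cidec, Lep, Retn and Cfd) all had a median of 3 counts or fewer in both groups and at most 5 counts in any sample, with a summed level of 0.079 to 0.177 CPM in control and 0.152 to 0.209 CPM in cKO.

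Cd36 changed by an amount close to that of the macrophage markers (2.3-fold and 2.22-fold in mean CPM), and Fabp4 by less (1.84-fold). For every 1000 macrophage marker counts there were 11.6, 10.8 and 11.6 Fabp4 counts in control and 9.59, 9.02 and 9.68 in cKO. This ratio was therefore lower in all cKO samples, although Fabp4 itself was higher. Cd36 had 132 ± 2.86 counts per 1000 macrophage marker counts in control and 137 ± 6.79 in cKO (SD, n = 3), and the samples overlapped. Per 1000 counts of progenitor markers, Fabp4 was at 18.8 ± 0.535 in control and 16.0 ± 0.65 in cKO, and Cd36 overlapped at 219 ± 2.32 and 232 ± 12.1.

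In mean CPM, Pparg, Cebpa, Cebpd, Plin2 and Lpl also changed less than the macrophage and progenitor lists, and about as much as the endothelial list. The endothelial list was highest in cKO replicate 2, at 0.59 (log2 over the control mean). Among the cKO samples, Pparg (0.4), Plin2 (0.44) and Lpl (0.5) were also highest there, while Cebpa (0.25) and Cebpd (0.22) were lowest. Plin2 and Lpl each had more counts than the whole endothelial list, of which 3 of 9 markers were called. Per 1000 macrophage marker counts, Pparg was at 66.2 ± 0.399 in control and 38.0 ± 1.86 in cKO, Cebpa at 76.1 ± 6.03 and 43.3 ± 5.39, and Plin2 at 286 ± 15.9 and 168 ± 8.9 (SD, n = 3). Per 1000 endothelial marker counts the groups overlapped for Pparg, Cebpa, Cebpd, Plin2 and Lpl, with Pparg at 592 ± 13.7 and 579 ± 54.5 and Plin2 at 2550 ± 204 and 2560 ± 248. Per 1000 satellite cell and myoblast marker counts, all cKO samples were above all controls for Pparg, Cebpa, Cebpd, Plin2, Lpl and Fabp4. This separation adds nothing to that in CPM, since these genes were higher and the summed list lower in every cKO sample. The part of macrophages, progenitors and endothelial cells in the differences of these genes was not tested.

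**Figure D5:**
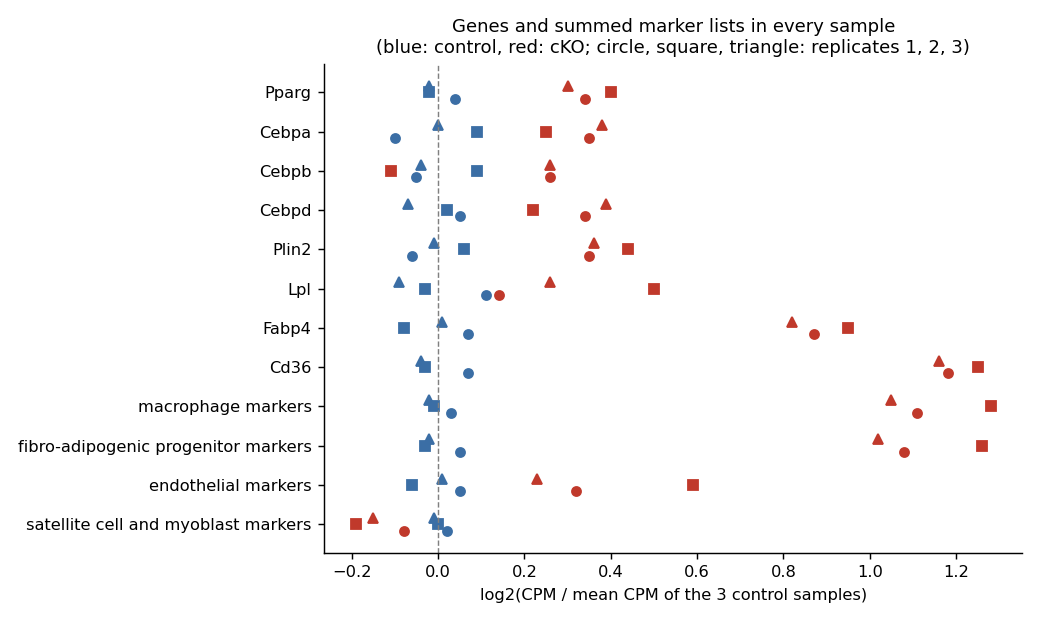
Level of 7 of the genes, Cd36 and 4 summed marker lists in every sample, as log2 of CPM over the control mean (horizontal axis; blue control, red cKO, with circle, square and triangle for replicates 1, 2 and 3). The cKO samples of Fabp4 lie at 0.82 to 0.95 and those of the macrophage and progenitor lists at 1.02 to 1.28, while those of Pparg, Cebpa, Cebpd and Plin2 lie at 0.22 to 0.44.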

How the data were processed

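RNA-seq was performed in 3 control and 3 cKO samples. Reads were aligned by the authors to mm10 with Bowtie2 2.3.4.2, and the deposited counts per gene were made with featureCounts 1.6.3 without normalization. Strand and multi-mapping settings are not given in the sources used here. The deposited tables of normalized values and of the authors' own comparison (mean, log2 fold change, p-value, made with DESeq2 2.11.40.6) were not used. All 55536 identifiers matched GENCODE M21, which gave symbols, coordinates and lengths. Here, counts were filtered with filterByExpr, scaled by TMM and compared by the edgeR 4.0.16 quasi-likelihood test in R 4.3.3 with genotype as the only term, with Benjamini-Hochberg adjustment over 22404 genes and a threshold of 0.05. The fit was tested on simulated data, with changes larger than those seen for Pparg, Cebpa, Cebpd, Plin2 and Lpl. The simulation therefore does not cover changes as small as theirs. SE is the log2 fold change over the square root of F. CPM and RPKM use total counts, and the floor is a median of 3 counts or fewer in each group.

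The 10 genes and all lists were chosen with earlier results of these data known. Named were Hira and all 10 genes; from each pathway list up to 3 called genes per direction with the largest change (each cKO or control sample of the higher group having 10 or more counts), and genes at the floor; and from each marker list the most abundant gene and the called gene with the largest change. Alternatives were DESeq2 1.42.0, other scaling, filters and thresholds, a likelihood-ratio test, a replicate block and leaving out each sample. Promoter windows came from RefSeq; none was used here for Cebpd, Lpl and Fabp4. Summaries used Python 3.11.15 with pandas 2.3.3, numpy 2.4.6, scipy 1.17.1 and matplotlib 3.10.9.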

Additional observations from a re-analysis of the deposited data

How the results depend on the processing

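Of the 10 genes, 6 were upregulated with other scalings, with either other filter and with the likelihood-ratio test, 5 with DESeq2 (1603 genes higher and 1252 lower in all), in which Lpl was not called, and 5 at an adjusted p under 0.01. Leaving out a sample gave 4 to 7 upregulated genes and 0 downregulated, with 2 to 4 regulators and 2 to 3 terminal genes. The 4 were found without control replicate 3, when Cebpd and Lpl were lost, and the 7 without cKO replicate 2, when Cebpb was gained. Over all genes, leaving out a sample gave 1571 to 2214 higher and 917 to 1673 lower, with 917, 934 and 960 lower when a control was left out, and the pathway lists gave 16 to 23 higher and 8 to 12 lower. The log2 fold change of Hira ranged from -0.52 to -0.29. At an adjusted p under 0.01, the call of Hira was lost (log2 fold change -0.43, adjusted p = 0.0237), 732 genes were lower in all and 7 pathway genes were lower. Scaling by total counts alone made 70.0% of calls higher in place of 59.2% and moved the median log2 fold change of all genes from -0.001 to 0.023. Samples with the same replicate number did not deviate together (correlations of -0.013, -0.005 and -0.015). With 3 samples per group, such values over all tested genes cannot exclude that samples were paired. The study used a paired t-test for its RT-qPCR of satellite cells 5 days after injury. A fit with the replicate number as a block called 1901 genes higher and 1251 lower, 6 of the 10 genes higher (3 regulators and 3 terminal genes) and 0 lower, and 19 pathway genes higher and 10 lower, and gave Hira a log2 fold change of -0.44 (adjusted p = 0.0465). Of the results of single named genes other than Hira under these alternatives, 552 stayed on the same side of the threshold, 56 lost a call, 6 gained one and 0 reversed. The depth limits Klf15, Plin1 and Adipoq, and the Fabp4 call rests on 98 to 102 counts per control sample.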
